A study of Triticum aestivum with 4 samples.

Results

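The alpha-amylase/trypsin inhibitors of the young wheat grain were read by 5 probe sets of 3 genes, out of 771 genes listed for the array and 61290 features in all. The genes were LOC543281 and LOC543286, both carrying the synonym ATI, and LOC542981, which carries the synonym WMAI-1. They were chosen on the genotype differences measured on these same arrays, so those differences are given as a description, without a test. A search for further probe sets whose identifiers begin with the same 4 stems returned 0.

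The samples were whole seed of field-grown bread wheat (Triticum aestivum), frozen 5 days after anthesis. The genotypes, Domain and RL4452, are the parental lines of a doubled haploid mapping population. Both grew without a stated treatment in 1.47 m rows of a field lattice replicated 3 times, and the seed of a sample filled a tube, so each array reads many seeds together. Each genotype was represented by 2 arrays, labelled biological replicates 1 and 3, and hybridised as biotin-labelled cRNA made from purified mRNA. The labels do not tie equal numbers to equal field blocks, and p-values over these arrays measure only the spread between these samples.

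Alpha-amylase/trypsin inhibitors are small, disulfide-rich, soluble proteins of the cereal endosperm and belong to the prolamin superfamily, together with gliadins, puroindolines and lipid transfer proteins. They occur as monomers, homodimers and heterotetramers, and they inhibit the digestive amylases of insects and mammals, and some of them trypsin. Their transcripts accumulate as the endosperm fills, and the proteins are known as allergens in baker's asthma. WMAI-1 is a wheat monomeric amylase inhibitor.

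Each deposited value is relative to the median of its probe set over the 4 arrays and is given here as log2, so that 0 is that median and 1 unit is a doubling. They compare arrays for a probe set and hold no level of a probe set against another. Because that median is the mean of the 2 middle arrays, the ratios of those arrays sum to 2 for each of the 5 probe sets. Domain replicate 1 and RL4452 replicate 3 were the middle arrays throughout, so their values mirror each other by construction, while the differences between arrays are kept.

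The single probe set of LOC543281 had log2 values of 0.51 in Domain replicate 1 and 2.55 in Domain replicate 3. In RL4452 it had -2.05 in replicate 1 and -0.81 in replicate 3. The genotypes did not overlap, and Domain replicate 3 stood far above the rest. Domain averaged 1.53 ± 1.44 and RL4452 averaged -1.43 ± 0.88 (SD, n = 2), a difference of -2.96, or 7.80-fold more in Domain. The nearest arrays of the genotypes stood 1.32 apart, less than the 2.04 between the Domain replicates and slightly more than the 1.25 between the RL4452 replicates.

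LOC543286 was read by 3 probe sets, 2 from the same sequence cluster, with the endings _at and _s_at, and the other from a second cluster. In each of them the genotypes did not overlap. The _at probe set had 0.28 in Domain replicate 1 and 2.20 in Domain replicate 3, then -1.54 in RL4452 replicate 1 and -0.34 in RL4452 replicate 3. Domain averaged 1.24 ± 1.36 and RL4452 averaged -0.94 ± 0.85 (SD, n = 2), a difference of -2.18, or 4.52-fold more in Domain. Its genotype gap of 0.62 was smaller than the range within either genotype.

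The _s_at probe set had 0.49 in Domain replicate 1 and 1.33 in Domain replicate 3, then -2.73 in RL4452 replicate 1 and -0.75 in RL4452 replicate 3. Domain averaged 0.91 ± 0.59 and RL4452 averaged -1.74 ± 1.40 (SD, n = 2), which differ by -2.65, or 6.26-fold. Here the wide spread was in RL4452, where replicate 1 was the lowest array, and the gap between genotypes was 1.24. By Affymetrix convention, the ending _s_at marks probes that match several similar transcripts, and _a_at, the ending of the LOC543281 probe set, marks probes shared by transcripts taken to come from the same gene.

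The second-cluster probe set of LOC543286 had 0.56 in Domain replicate 1 and 1.06 in Domain replicate 3, then -2.58 in RL4452 replicate 1 and -0.93 in RL4452 replicate 3. Domain averaged 0.81 ± 0.35 and RL4452 averaged -1.76 ± 1.17 (SD, n = 2), a difference of -2.57 or 5.94-fold. It had the tightest Domain pair of the 5 probe sets and the widest gap between genotypes, 1.49. That gap was still smaller than the 1.65 between the RL4452 replicates.

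The monomeric inhibitor gene LOC542981 was read by 1 probe set, with 0.29 in Domain replicate 1 and 1.51 in Domain replicate 3, then -0.56 in RL4452 replicate 1 and -0.37 in RL4452 replicate 3. It had the smallest genotype difference of the 5, -1.37 or 2.58-fold, where Domain averaged 0.90 ± 0.86 and RL4452 averaged -0.46 ± 0.13 (SD, n = 2). The RL4452 replicates lay 0.19 apart, against 1.20 to 1.98 for the ATI probe sets. Whether the smaller difference sets this gene apart from the ATI genes was not tested. Averaged over probe sets, the differences were -2.96 for LOC543281, -2.46 for LOC543286 and -1.37 for LOC542981.

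**Figure D1:**
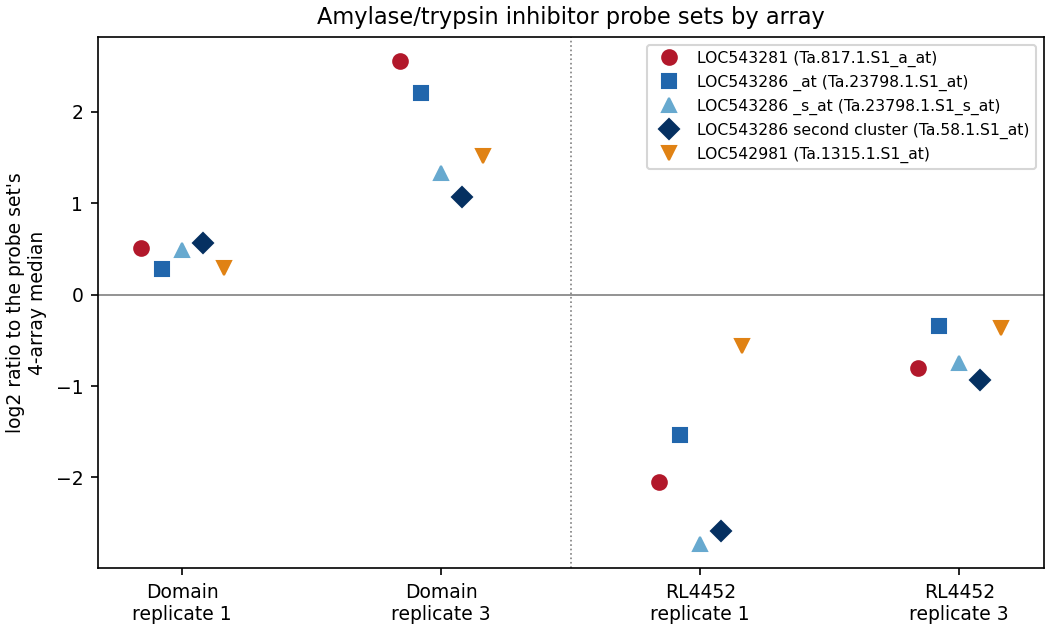
Log2 ratio of each of the 5 inhibitor probe sets (points, coloured by probe set) on each of the 4 arrays, with 0 at the probe set's 4-array median. All 5 probe sets lie highest in Domain replicate 3 (1.06 to 2.55) and lowest in RL4452 replicate 1 (-2.73 to -0.56), and no RL4452 point lies above 0.

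All 5 probe sets ordered the arrays alike, from Domain replicate 3 down through Domain replicate 1 and RL4452 replicate 3 to RL4452 replicate 1. Over all 61179 tested probe sets, 3.57% had this order, and in 15.5% the higher RL4452 array lay below the lower Domain array, as in all 5 inhibitor probe sets. The probe sets read 3 genes of 1 family on the same arrays and are not separate observations of the genotypes, and the choice of genes favours such an order. Of the 20 differences between an RL4452 array and a Domain array, 20 were negative, from -4.61 to -0.62.

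Within-genotype differences were large beside these gaps. The Domain replicates lay 0.50 to 2.04 apart and the RL4452 replicates 0.19 to 1.98, with replicate 3 above replicate 1 in both genotypes for all 5 probe sets. Among all tested probe sets 32.1% were higher in replicate 3 in both genotypes. In 5 of 5 probe sets the range within at least 1 genotype exceeded the gap between the genotypes, in 3 of them within Domain and in 3 within RL4452.

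**Figure D2:**
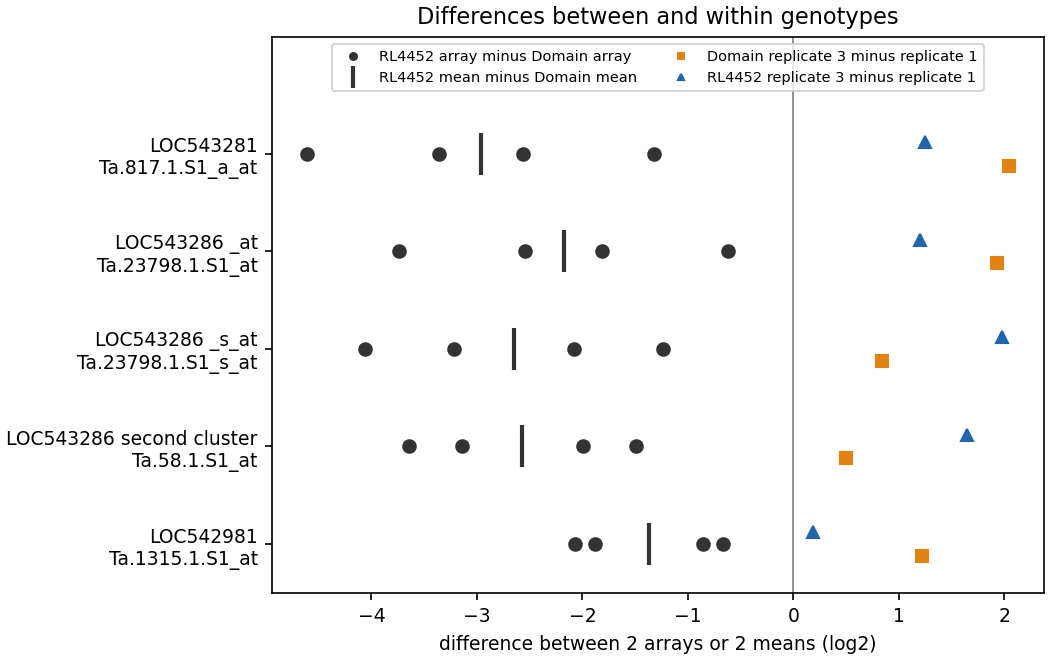
Log2 differences for each probe set: the 4 differences between an RL4452 and a Domain array (black circles), the difference of genotype means (black bar), and the replicate 3 minus replicate 1 difference in Domain (orange squares) and RL4452 (blue triangles). Every circle lies below 0, from -4.61 to -0.62, and the replicate differences reach 2.04 in Domain and 1.98 in RL4452.

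In the limma test over all probe sets, 0 of the 5 passed a Benjamini-Hochberg adjusted p under 0.05, where 0.15% of all tested probe sets were called lower in RL4452. At an unadjusted p under 0.05 the count was 5 of 5, against 3.36% of all tested probe sets lower in RL4452. Since this contrast chose the genes, nothing is read from either count. The limma calls over all probe sets, 171 in either direction or 0.28%, dropped to 0 without Domain replicate 1 (3292 at an unadjusted p under 0.05), to 0 without Domain replicate 3 (3418 at an unadjusted p under 0.05) and to 101 without RL4452 replicate 1, and none of the 5 was called in any of these fits.

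By size, the genotype differences ranked 93rd for LOC543281, 128th, 140th and 209th for the probe sets of LOC543286, and 585th for LOC542981 among 61179 probe sets ordered from the lowest in RL4452. The median absolute difference over all of them was 0.17. In Domain replicate 3 alone, the 5 values ranked between 31st and 225th from the top. In RL4452 replicate 1 the ATI probe sets ranked between 58th and 229th from the bottom, and the LOC542981 probe set lay at 2.11% of the list from the bottom. The choice of genes on the genotype difference favours such ranks, so they are given only as a description.

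**Figure D3:**
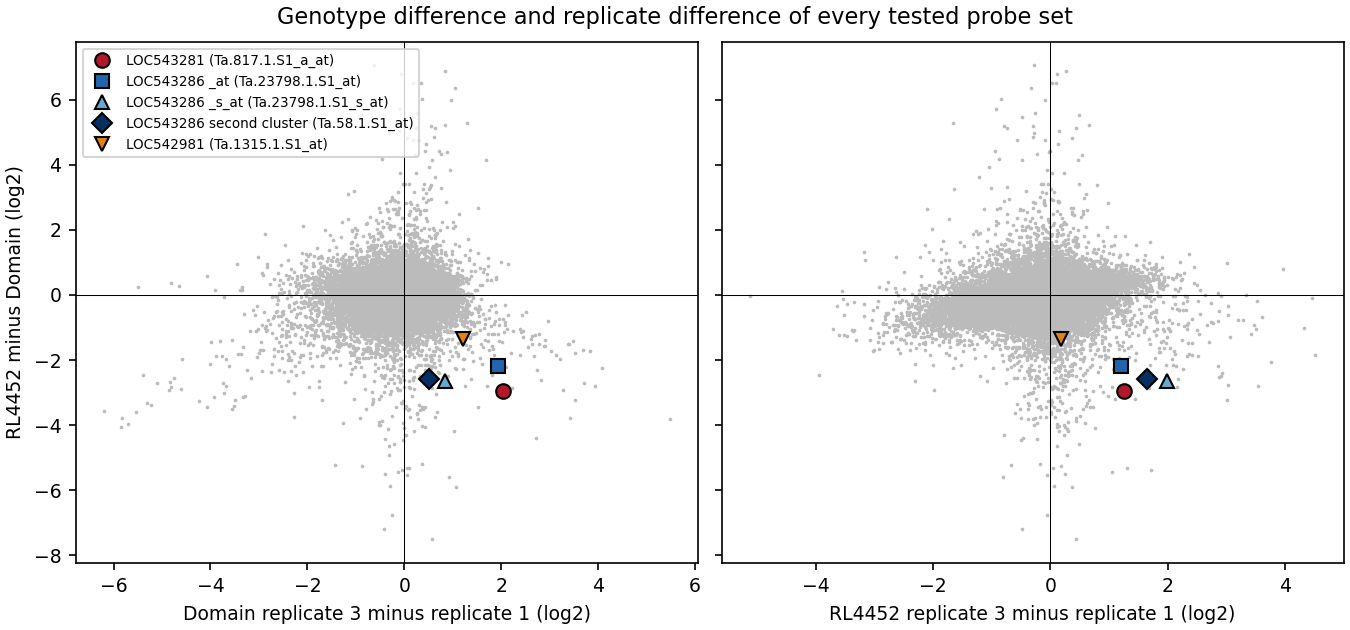
Difference of genotype means (RL4452 minus Domain, log2, vertical) against the replicate 3 minus replicate 1 difference (log2, horizontal) in Domain (left) and RL4452 (right), for 61179 tested probe sets (grey dots) and the 5 inhibitor probe sets (coloured markers). The inhibitors lie below 0 on the vertical axis, from -2.96 to -1.37, and to the right of 0 in both panels.

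The probe sets of LOC543286 did not share the same replicate pattern. Likeness was measured as the Euclidean distance between log2 values over the 4 arrays, after centring each probe set on its own mean. The _s_at and second-cluster probe sets were the closest pair, at 0.34, and differed by at most 0.27 on any array. The _at probe set, drawn from the same sequence cluster as the _s_at one, lay 1.06 and 1.13 from them. It was closer to LOC543281, at 0.79.

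The replicate differences show the resemblance. The _at probe set of LOC543286 and the LOC543281 probe set had differences of replicate 3 minus replicate 1 of 1.93 and 2.04 in Domain and of 1.20 and 1.25 in RL4452. In the other 2 probe sets of LOC543286 they were 0.84 and 0.50 in Domain and 1.98 and 1.65 in RL4452. The gene assignment comes from an old array annotation, and wheat can carry similar copies of a gene on its A, B and D subgenomes. Which copies each probe set reads is therefore uncertain.

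In the annotation of the Chinese Spring wheat assembly (IWGSC CS RefSeq v2.1), LOC543286 and LOC543281 are direct neighbours on chromosome 4B, with 0 annotated genes between them. LOC542981 lies on chromosome 6D, where 1 annotated gene precedes it. Of the 5 genes on either side of the ATI pair, 0 had a listed probe set, so the values of the surrounding genes were not analysed here.

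Purothionins, small basic antimicrobial proteins of the endosperm, had the same array order in 5 of 5 probe sets of 3 genes. Over all tested probe sets 3.57% had this order. The genes are similar, with the synonym Pur-B1 carried by both THI1.1 and THI1.2, so the 5 probe sets are not separate observations. The _x_at probe set of THI1.1 had 0.30 in Domain replicate 1 and 1.90 in Domain replicate 3, then -1.63 in RL4452 replicate 1 and -0.38 in RL4452 replicate 3, a difference of -2.11. The other probe set of THI1.1 had -2.59, LOC543413 (THI1.3) had -1.57 and -1.49, and THI1.2 had -0.67. The median was -1.57, against 0.01 over all tested probe sets, and it was -0.89 without Domain replicate 3. Limma called 0 of the 5 (adjusted p from 0.665 to 0.887), and 4 had an unadjusted p under 0.05, against 5.85% over all tested probe sets.

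The median of the purothionins was 0.30 in Domain replicate 1, 1.73 in Domain replicate 3, -0.75 in RL4452 replicate 1 and -0.38 in RL4452 replicate 3. In the same order it was 0.49, 1.51, -2.05 and -0.75 for the inhibitors. By these medians the groups stood similarly high in Domain replicate 3, and the inhibitors lay lower in RL4452 replicate 1, a difference that was not tested. Single probe sets of the groups overlapped in RL4452 replicate 1. THI1.1 had -2.63 and -1.63 there, within the -2.73 to -1.54 of the ATI probe sets. The inhibitor gene LOC542981 had -0.56, and the other purothionin probe sets had -0.75, -0.74 and -0.32.

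The storage prolamins and avenin-like proteins, the main nitrogen store of the endosperm, comprised 17 probe sets of 8 genes. In RL4452, 15 were lower and 2 higher, and in 7 the genotypes did not overlap, with Domain higher, against 15.5% over all tested probe sets. Limma called 0, with 2 at an unadjusted p under 0.05, against 5.85% over all. The median difference was -0.41. Leaving out Domain replicate 3 gave -0.08, and leaving out Domain replicate 1 gave -0.73. Their median was 0.01 in Domain replicate 1, 0.73 in Domain replicate 3, -0.12 in RL4452 replicate 1 and -0.09 in RL4452 replicate 3. By this median the prolamin markers of the endosperm stood higher in Domain replicate 3, the array in which the inhibitors were highest. The starch synthesis genes below, also of the endosperm, did not stand highest in that array.

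The lowest values of that list came from 1 of the 3 probe sets of the gamma-gliadin gene LOC543214, at -2.72, and 1 of the 2 probe sets of the avenin-like gene LOC780582 (avnla), at -2.47 (limma adjusted p = 0.898 and 0.497). The LOC543214 probe set had 0.33 and 4.05 in Domain and -0.61 and -0.43 in RL4452, so that a single array carried most of its difference. Excluding that array, Domain replicate 3, its difference was -0.86 and that of the LOC780582 probe set -1.57. The other probe sets of LOC543214 had -0.12 and -0.21, and the other of LOC780582 had -2.02. The highest values of the list also came from single probe sets. One probe set of LOC100125692 (avnlb) had 0.32, which turned to -0.07 when Domain replicate 3 was left out, while the gene's other 3 had -1.86, -1.41 and -1.15. One of the low-molecular-weight glutenin gene LOC543213 had 0.20, which turned to -0.09 when Domain replicate 1 was left out, and its other 2 had -0.35 and -0.24. The part of endosperm content in the inhibitor values was not tested. In whole seed, fewer endosperm cells and less of a transcript per cell cannot be told apart.

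Starch synthesis genes of the endosperm had differences on both sides of 0. Wx-A1 (LOC543395), the granule-bound starch synthase that makes amylose, had -1.28 and -2.00 in Domain and 0.82 and 0.67 in RL4452, a difference of 2.39 (limma adjusted p = 0.0992). AGP-S (LOC543299), the small subunit of ADP-glucose pyrophosphorylase, had 0.34 and 0.14 in Domain and -0.16 and -0.67 in RL4452. Its difference was -0.66 (limma adjusted p = 0.832). Both Domain arrays of AGP-S lay above both RL4452 arrays, as in 15.5% of all tested probe sets, while those of Wx-A1 lay below. In Domain replicate 3, where the prolamin median was highest, Wx-A1 had its lowest value and AGP-S had 0.14, below its 0.34 in Domain replicate 1. Both had an unadjusted p under 0.05, against 5.85% over all tested probe sets, and limma called 0 of the 2. After quantile normalization Wx-A1 was called, at 2.73 (limma adjusted p = 0.0444). Its adjusted p lay between 0.101 and 0.256 in the other alternative fits.

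Serpin and lipid transfer protein probe sets had smaller differences. The serpins, inhibitors of serine proteases, comprised 5 probe sets with a median of -0.09, of which 4 lay below 0 and 1 above, and the value furthest from 0 was -0.84 for the _s_at probe set of LOC100037548. The others were -0.34 for LOC543382, -0.09 for LOC543376, -0.01 for the second probe set of LOC100037548 and 0.10 for LOC542985. The lipid transfer protein gene LTP3 (LOC543095), of the same superfamily as the inhibitors, had 0.28 and 0.23. Limma called 0 of these 7, and 0 had an unadjusted p under 0.05, against 0.28% and 5.85% over all tested probe sets.

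An added list, drawn up after values had been seen, held 8 probe sets of 6 named genes. Its median was 0.10, and 4 lay below 0 and 4 above. Limma called 0, with 0 at an unadjusted p under 0.05, against 0.28% and 5.85% over all tested probe sets. The median of the added list was -0.01 when Domain replicate 1 was left out and 0.26 and 0.44 when either RL4452 array was. It was 0.48 between Domain replicate 3 and RL4452 replicate 1, which shared a fluidics module. The xylanase inhibitor XIP-I (LOC542997) had 0.44 and 0.39, and PR5 (LOC543292), a thaumatin-type defence protein, had 0.44. WGA2 (LOC543494), a wheat germ agglutinin, had 0.23, and the thionin TTHV had -0.03. The probe sets of cys1 (LOC543181) had -0.13 and -0.10, which turned to 0.01 and 0.03 after quantile normalization. The lowest was -0.39 for wci (LOC542996), which was 0.07 when Domain replicate 3 was left out. The name patterns met no further amylase or protease inhibitor gene. They were matched to symbols and synonyms only, so an inhibitor gene listed without such a name would have been missed.

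**Figure D4:**
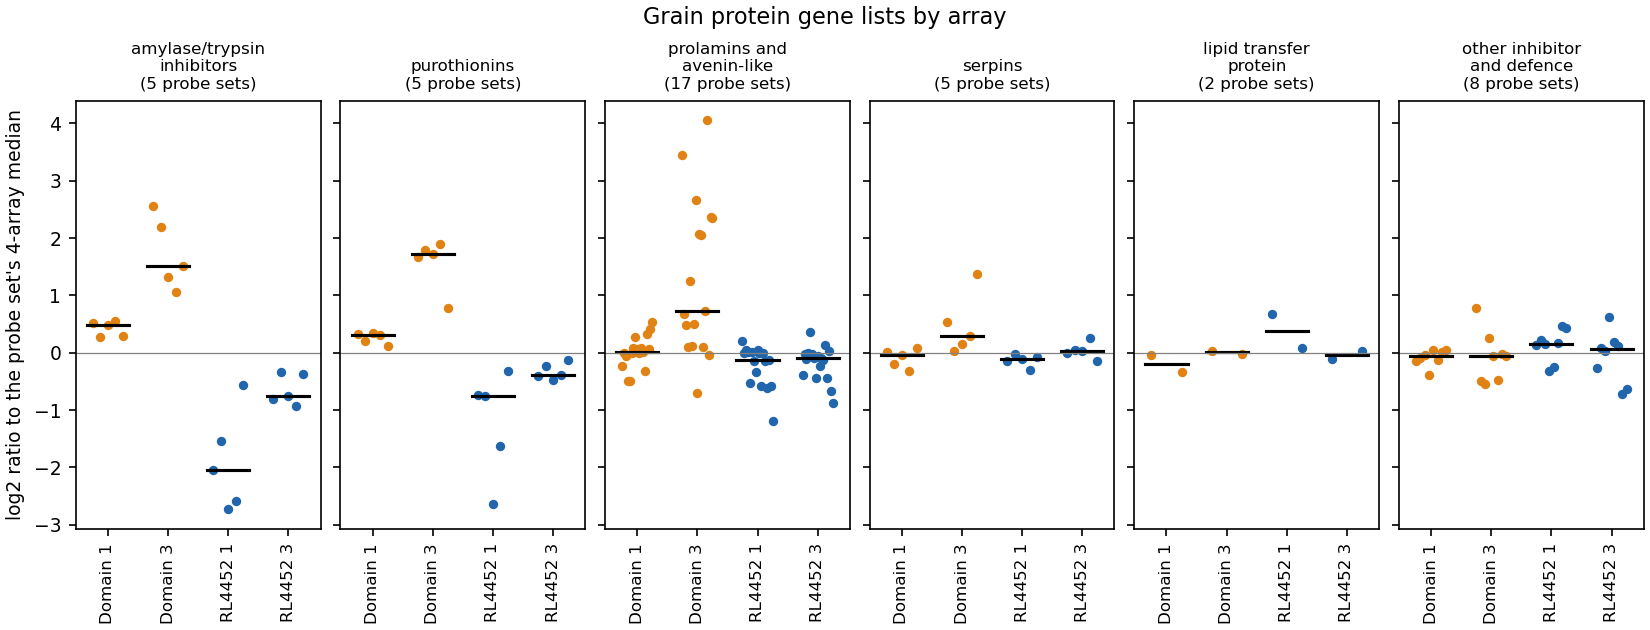
Log2 ratio to the 4-array median of each probe set (points, orange for Domain and blue for RL4452) on each array, with the list's median as a black line, for the inhibitors and 5 related lists. The inhibitor medians run from 1.51 in Domain replicate 3 to -2.05 in RL4452 replicate 1 and the purothionin medians from 1.73 to -0.75, while the serpin medians lie between -0.10 and 0.30.

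Markers of other seed tissues lay near 0. The marker of green pericarp was a single gene, LOC100049018, with 28 probe sets. It carries the name rbcL, that of the plastid gene for the large Rubisco subunit, but the gene table places it on chromosome 2D. Its probe sets had a median of 0.03 and ran from -0.54 to 0.44. Of them 1, or 3.57%, had an unadjusted p under 0.05, against 5.85% over all tested probe sets. The 6 embryo and late embryo probe sets (LEA and Em genes) had a median of 0.02 and ran from -0.18 to 0.15, with 0 at an unadjusted p under 0.05. Limma called 0 in either list, against 0.28% over all tested probe sets. Because the ratios hold no levels, whether these tissues' markers were expressed could not be checked.

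Among 1268 other probe sets with a listed gene, the 5 genes nearest to the mean profile of the inhibitors over the 4 arrays were THI1.1, LOC780582 (avnla), LOC543104, LOC606352 and LOC543413 (THI1.3). Their distances were 0.31, 0.76, 0.94, 0.99 and 1.01, against a median of 2.70 over all other probe sets. Each gene was represented by its nearest probe set. The inhibitors were chosen on their genotype difference, so probe sets that vary little lie far from their mean profile by that choice. The distances are therefore given only as a description. The inhibitors themselves lay 0.47 to 1.24 from their mean profile. LOC543104 had a genotype difference of -1.47 and LOC606352 of -2.00 (limma adjusted p = 0.718 and 0.238). Within the distance of the farthest inhibitor probe set lay 106 other probe sets, 10 of them with a listed gene.

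Control transcripts also varied between the arrays. The poly-A spike-ins, bacterial transcripts added to the RNA, had medians of 0.50 in Domain replicate 1, -0.92 in Domain replicate 3, 1.33 in RL4452 replicate 1 and -0.86 in RL4452 replicate 3 (36 probe sets), so they were higher in replicate 1 of both genotypes, where the inhibitors were lower. The hybridization controls had 0.34, -0.13, -0.88 and 0.12 in the same order (27 probe sets), with their lowest value in RL4452 replicate 1, the array in which the inhibitors were lowest. The wheat control transcripts without 18S rRNA had 0.08, 0.04, 0.12 and -0.32 (24 probe sets). The 18S ribosomal RNA probe set had 0.75, -1.68, 2.04 and -3.12 in that order, the widest range among these controls. It was higher in replicate 1 than in replicate 3 of both genotypes, the reverse of the inhibitors. The part of these shifts in the inhibitor values was not tested.

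Each array was hybridised on a day of its own, so day and array cannot be told apart. Both replicate 1 arrays were hybridised before both replicate 3 arrays, so hybridization order and replicate number cannot be told apart either. Domain replicate 3 and RL4452 replicate 1 shared fluidics module 2, the only module with both genotypes. Between these arrays the differences were -4.61 for LOC543281, -3.74, -4.06 and -3.64 for the probe sets of LOC543286 and -2.07 for LOC542981. They are the highest and the lowest array of each probe set. Without RL4452 replicate 1 the difference of the _s_at probe set of LOC543286 was -1.66. Without Domain replicate 3 that of its _at probe set was -1.21, that of LOC543281 was -1.94 and that of LOC542981 was -0.76. Because the genotypes did not overlap, leaving out an array could not change the sign.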

How the data were processed

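Transcript abundance was measured on 4 Affymetrix wheat arrays. The authors deposited linear ratios. The submitters' processing notes name RMA, with no version or later step. In 99.5% of features the median of the deposited ratios over the arrays was 1 within 0.002. Ratios were log2-transformed here. The instrument files deposited with each array, per the file headers, gave the fluidics module and hybridization order.

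The 111 control probe sets were left out, and 61179 were tested with limma 3.58.1 in R 4.3.3 (lmFit, eBayes, genotype as the only term, two-sided, Benjamini-Hochberg adjustment over all probe sets, prior degrees of freedom 2.99), a step tested on simulated data. Tables and figures used Python 3.11.15, pandas 2.3.3, numpy 2.4.6 and matplotlib 3.10.9. Depth and signal over background are unknown, and precision is limited by the number of arrays.

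Gene names came from the array annotation, updated by gene identifier through the gene table of IWGSC CS RefSeq v2.1. A single gene was listed for 1273 features, several for 0 and none for 60017, and 770 of 771 genes were found. Lists were drawn by name pattern. A translation factor (Eif4B) that met the letters of ATI by its synonym was removed. Members and lists were chosen with earlier results of these data known. Named were the inhibitor probe sets, every probe set of the inhibitor, thionin, lipid transfer, serpin and added lists, the 2 lowest and 2 highest values of other lists, and the 5 nearest genes; for rbcL and embryo lists only the range is given. Alternatives were quantile normalization, median-centring, a replicate block, a robust prior, leaving out each array, fluidics module, probe sets without shared probes, 1 value per gene and means of linear ratios.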

Additional observations from a re-analysis of the deposited data

How the results depend on the processing

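The inhibitor differences were below 0 in all 62 values, over the 5 probe sets and their median, under the settings run, and limma called none of the 5 in any of 9 fits. The genes were chosen on this contrast, and all 20 differences between single arrays were negative. Leaving out arrays or averaging otherwise could therefore not change the sign, so nothing is read from these 62 values. The inhibitor median, -2.57, was -2.30 after quantile normalization, -2.18 for probe sets without shared probes and -2.46 with 1 value per gene. It ran from -3.39 to -1.66 over arrays left out and was -3.74 within the shared fluidics module, where the lists gave -2.54 for purothionins, -0.60 for serpins, -0.87 for prolamins, 1.26 for starch synthesis, -0.031 for green pericarp and -0.20 for embryo. Over arrays left out, list medians ran from -2.28 to -0.89 for purothionins, -0.32 to 0.0014 for serpins and -0.73 to -0.078 for prolamins. They ran from 0.048 to 0.46 for lipid transfer proteins and -0.029 to 0.070 for green pericarp. For embryo they ran from -0.086 to 0.20 and for the added list from -0.012 to 0.44. The starch synthesis median ran from 0.64 to 1.09. It is the midpoint of 2 probe sets of opposite sign, Wx-A1 at 2.39 and AGP-S at -0.66. Of the list members, limma called only Wx-A1, after quantile normalization, in 1 of the 9 fits.

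Limma called 171 probe sets, 0 with a replicate block (4555 at an unadjusted p under 0.05) and 0 to 128 over arrays left out. In those fits the single array of a genotype takes its spread from the other genotype. No label says that replicate numbers pair samples, and the replicate deviations of the genotypes correlated at 0.143 across probe sets. With fluidics module as a block, no degrees of freedom remained. A dim filter and another background correction were not run, since the ratios hold no signal levels. Groups of 2 arrays limit every value.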
